A study of Homo sapiens with 18 samples.

Results

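Interferon-stimulated genes are the genes that a cell switches on after an interferon binds its receptor, and 34 of them were followed here across all groups of an array study of human kidney cells. The 34 genes were chosen with earlier results of these data known, so their counts below are descriptions beside the shares of all genes. Probes were then taken by gene name and not by a measured value. Every probe whose listed gene name was one of the 34 symbols, or an older or current symbol of the same gene, was taken. This gave 50 of the 48803 probes on the array. A gene was measured where a probe had a detection p under 0.01 on at least 3 of the 18 arrays, and its brightest such probe then stood for it. By that rule 29 of the 34 genes were measured, among 12463 genes in all, and 26 of the 29 were detected on all 18 arrays. The other 5 genes, IFI27, MX2, OAS2, OASL and XAF1, were detected on 0 arrays and are not followed further. RIGI is listed on the array under its older name DDX58, IRF9 under ISGF3G, and the brightest probe of IFI6 under G1P3.

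The cells were HK-2, an epithelial line from the proximal tubule of human kidney that was immortalised with papillomavirus oncogenes, at passages 18 to 30. All flasks were kept in 5 mM glucose for 48 h and starved of serum overnight before any agent was added. There were 6 groups of 3 flasks, with 1 array per flask: controls with no supplement, at 48 h or 18 h, cells with 5 nM C-peptide for either time, TGF-beta1 at 2 ng/mL for 48 h, and TGF-beta1 with C-peptide at the same doses for 48 h, called both agents here. C-peptide is the fragment cut from proinsulin when insulin is made, and TGF-beta1 is a growth factor known for driving fibrosis. No group received interferon, per the labels. The 3 flasks of a group are cultures of the same line, so the p-values measure the spread between flasks.

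Interferons alpha, beta and lambda signal through the kinases JAK1 and TYK2 to a complex that holds STAT2 and IRF9 and binds a promoter element called the interferon-stimulated response element (ISRE). Interferon gamma acts on another element, the gamma-activated site (GAS). Many of the induced proteins block viruses, while others sense viral RNA or carry the signal itself, and epithelial cells hold a low level of many of them without added interferon.

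Each array detected 14580 to 15818 probes, the mean intensity per array ran from 215.9 to 343.7 units, and the median bead count per probe was 40 to 42. The TGF-beta response genes PMEPA1, SMAD7, TGFBI, COL1A1 and SKIL rose in the TGF-beta1 group, by 1.19 to 2.42 on the log2 scale. Which TGF-beta had been added was not tested. Of 13 markers of epithelium and proximal tubule 9 were measured, while ANPEP, AQP1, LRP2 and CUBN, which mark the mature brush border, were detected on 0 arrays. Among 12 leukocyte markers only CD68 and CSF1R were measured, and PTPRC, CD14, CD3E and the plasmacytoid dendritic cell marker CLEC4C were detected on 0 arrays. The summed unnormalized intensity of all probes of the 12 leukocyte markers, detected or not, was 1921 to 2082 in the 48 h controls and 1703 to 1733 with TGF-beta1. CSF1R, a macrophage growth factor receptor, was detected on 0 of 3 control arrays and rose at least 3.82-fold with TGF-beta1, and its part in the results below was not tested. Such a bound is given wherever a gene was detected on 0 arrays of a group, and sets the other group against the lowest signal among detected probes. The array numbers in the file headers form 3 runs of 6 arrays: 48 h control with TGF-beta1, 48 h C-peptide with both agents, and the 2 groups of 18 h. TGF-beta1 against control, both agents against C-peptide, and C-peptide against control at 18 h therefore compare arrays of the same run. For all other comparisons between groups, the run and the treatment cannot be told apart.

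The third 18 h C-peptide array stood apart from its group. The mean of 18 measured NF-kappaB and inflammatory genes, taken relative to the 48 h controls, was 1.20 on that array against -0.38 and -0.05 on the other two and 0.06 to 0.17 on the 18 h controls. The 18 h C-peptide differences named below are given with and without it.

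TGF-beta1 for 48 h lowered most of the measured interferon-stimulated genes. In TGF-beta1 against control, 21 of the 29 genes fell and 1 rose at an adjusted p under 0.05, while 7 did not pass, by limma's moderated test with Benjamini-Hochberg adjustment over all 12463 genes. Among all genes tested 23.2% fell and 21.9% rose. The median difference over the 29 genes was -0.48 on the log2 scale, beside -0.01 over all genes. On all 3 TGF-beta1 arrays the value lay below all 3 control arrays for 23 of the 29 genes, a pattern that 30.3% of all genes showed. For 5 of the 29 genes the fall was at least 2-fold, which was so for 3.88% of all genes. Of the 26 genes detected on every array, which did not need the control arrays to be measured, 19 fell. Among all 10518 genes detected on every array, fitted alone, 45.4% were called in either direction, and a share for falls alone is not given. The median difference in that fit was -0.005 over these genes and -0.49 over the 26. In such bulk RNA, fewer cells with a transcript and less transcript per cell cannot be told apart. The mean over the 29 genes relative to the 48 h controls was -0.51, -0.54 and -0.61 on the 3 TGF-beta1 arrays and -0.48, -0.47 and -0.48 on the arrays with both agents, against 0.02 on each 48 h C-peptide array.

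**Figure D1:**
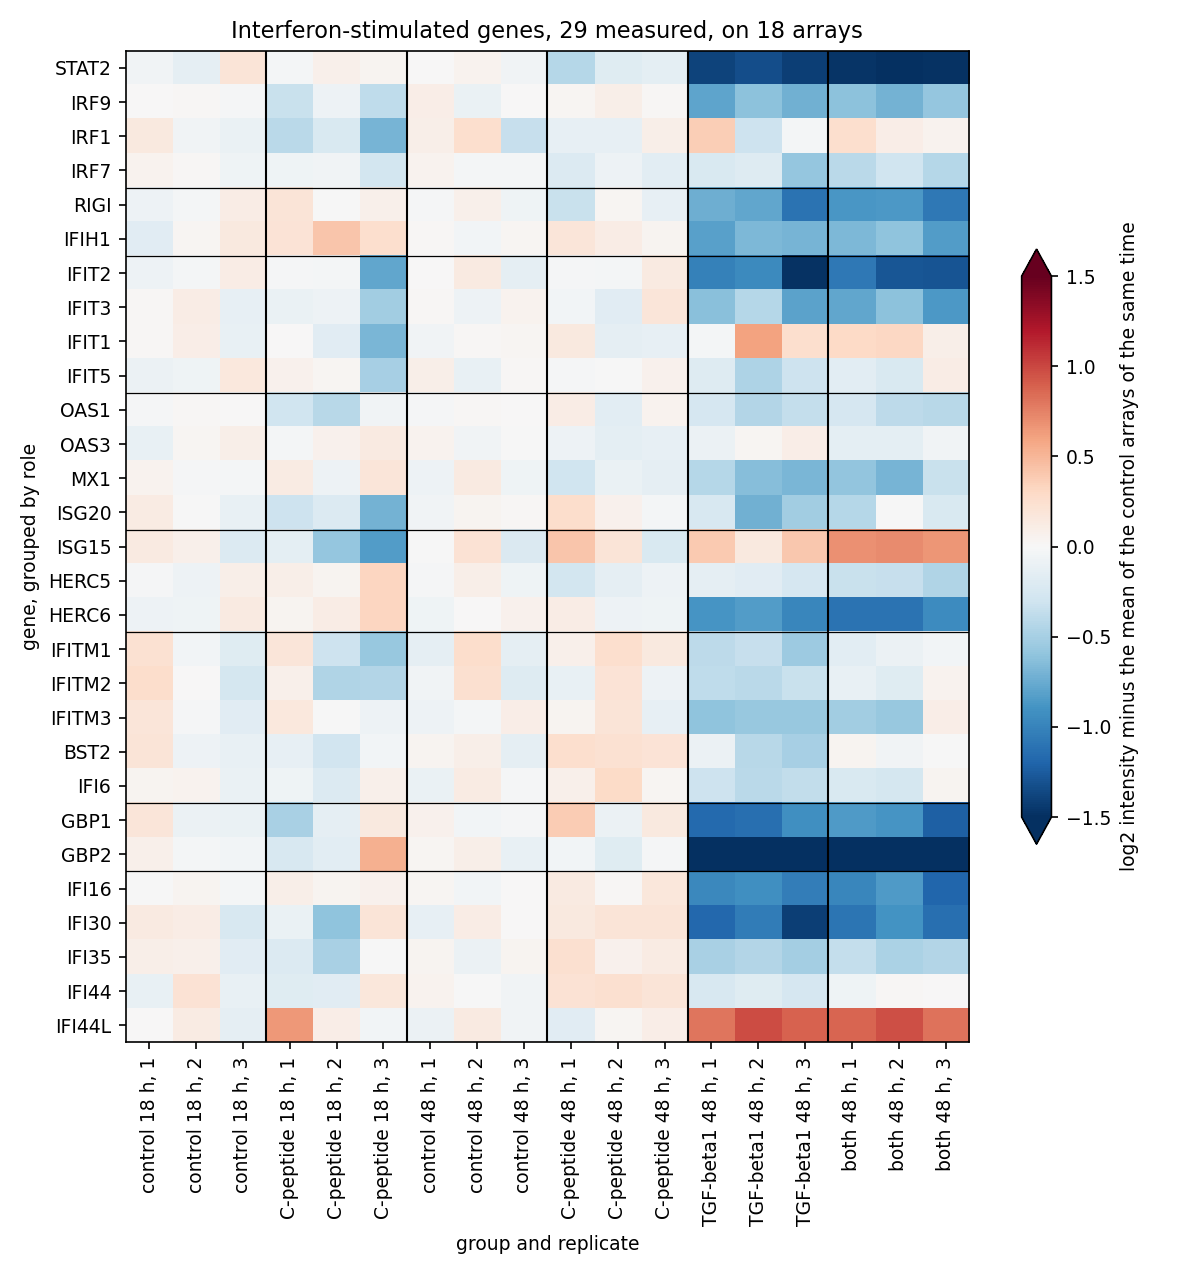
Normalized log2 intensity of the 29 measured interferon-stimulated genes (rows, ordered by role) on each of the 18 arrays (columns), as the difference from the mean of the 3 control arrays of the same time. The 6 columns with TGF-beta1 are blue in most rows and red for IFI44L. ISG15 lies above the control mean in each of them and IFIT1 in most. The columns with C-peptide alone stay pale except for single arrays.

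The promoters were searched for the letters of both elements, since the genes moved together. RefSeq promoter windows of build GRCh38.p14, from 250 bases before to 50 bases after a gene's start, were held for 27 of the 34 genes, and none were held for IFIT2, IFITM2, MX2, OAS2, OASL, IRF7 and GBP2. The ISRE letters GAAANNGAAA, on either strand, were found for 17 of the 27 genes, or 63.0%, against 4.38% of 27305 genes in the promoter table. The GAS letters TTCNNNGAA were found for 8 of the 27 genes, or 29.6%, against 9.38% of all. Both searches asked for identical letters, and a match is a description of the sequence, not a bound site. By the TGF-beta1 result, the ISRE letters were present for 9 of the 17 genes with a window that fell with TGF-beta1, for 6 of the 7 that did not pass, and for the 1 that rose. Promoters are printed below for the 3 genes that fell most and the 1 that rose among those with a window, and shorter stretches around the ISRE letters for 6 genes picked after their values were seen: IFIH1, which fell, and IFIT3 with IFIT1, ISG15 with HERC5, and IFI44, which belong to families where some genes passed and others did not. Differences between genes were not tested.

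Of the 4 transcription factors that carry or answer the interferon signal, 3 fell. STAT2, a subunit of the interferon complex, measured 11.19, 11.24 and 11.14 on the 48 h control arrays, 9.80, 9.86 and 9.78 with TGF-beta1, 10.76, 11.00 and 11.05 with C-peptide and 9.71, 9.65 and 9.71 with both agents. The 6 arrays with TGF-beta1 lay below the other 6, with no overlap. STAT2 fell by 2.6-fold with TGF-beta1 (log2 difference -1.38 ± 0.09, SE; adjusted p = 9.36e-11). Its unnormalized intensities were 2899, 2748 and 2470 on the control arrays and 1019, 1105 and 1004 with TGF-beta1. Its promoter window, chr12:56360058-56360357 on the minus strand, holds neither set of letters and is shown because no gene with a window fell more:
STAT2: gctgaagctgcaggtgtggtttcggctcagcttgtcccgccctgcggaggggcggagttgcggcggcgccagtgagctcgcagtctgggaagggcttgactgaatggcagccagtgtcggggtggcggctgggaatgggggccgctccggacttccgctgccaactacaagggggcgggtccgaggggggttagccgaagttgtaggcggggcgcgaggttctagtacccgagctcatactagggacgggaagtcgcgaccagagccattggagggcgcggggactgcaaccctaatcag

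IRF9, the DNA-binding subunit of the same complex, measured 9.45, 9.24 and 9.35 in the 48 h controls, 8.56, 8.74 and 8.63 with TGF-beta1, 9.37, 9.43 and 9.37 with C-peptide and 8.73, 8.64 and 8.77 with both agents. The groups with and without TGF-beta1 did not overlap, and the difference from control was -0.71 ± 0.09 (adjusted p = 1.62e-06). IRF7, which drives later interferon production, fell less (-0.33 ± 0.10, adjusted p = 0.0129), and its dimmer second probe gave -0.16 (adjusted p = 0.375). IRF1, an early factor induced by interferon gamma, ran from 8.15 to 8.75 in the controls and 8.18 to 8.86 with TGF-beta1, and differed by 0.01 ± 0.16 (adjusted p = 0.973, 95% interval -0.32 to 0.34).

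Both RNA sensors of the set fell. RIGI, which detects uncapped viral RNA in the cytosol, measured 6.67, 6.76 and 6.63 in the 48 h controls, 5.96, 5.90 and 5.57 with TGF-beta1, 6.35, 6.71 and 6.56 with C-peptide and 5.81, 5.82 and 5.61 with both agents. The difference between TGF-beta1 and control was -0.87 ± 0.12 (adjusted p = 5.75e-06), and the groups did not overlap. IFIH1, also called MDA5, which detects long double-stranded RNA, measured 7.87, 7.81 and 7.89 in the controls and 7.04, 7.18 and 7.15 with TGF-beta1. With C-peptide it measured 8.04, 7.97 and 7.89 and with both agents 7.18, 7.25 and 7.02, again without overlap between the arrays with and without TGF-beta1. Its difference from control was -0.73 ± 0.10 (adjusted p = 4.56e-06). The IFIH1 window holds 3 matches to the ISRE letters, of which the pair that begins at -159 from the start overlaps, in chr2:162318816-162318855, minus strand, shown in capitals here and in the sequences that follow:
IFIH1: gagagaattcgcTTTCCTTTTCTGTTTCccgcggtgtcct

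The IFIT family, whose proteins bind foreign RNA and stall its translation, held 4 measured genes, of which 2 fell and 2 did not pass. IFIT2 measured 9.49, 9.63 and 9.36 in the 48 h controls, 8.47, 8.53 and 8.00 with TGF-beta1, 9.47, 9.47 and 9.63 with C-peptide and 8.42, 8.20 and 8.20 with both agents. It fell by 2.23-fold (-1.15 ± 0.16, adjusted p = 7.17e-06), with no array in common between the ranges. IFIT3, which binds and stabilises IFIT1, measured 8.94, 8.85 and 8.98 in the controls, 8.30, 8.50 and 8.12 with TGF-beta1, 8.88, 8.75 and 9.10 with C-peptide and 8.14, 8.30 and 8.06 with both agents. It fell by 1.53-fold (-0.62 ± 0.13, adjusted p = 0.000434). A second probe of IFIT3 gave -0.69, and a dim further one, detected on 1 of 3 TGF-beta1 arrays, gave -0.24 (adjusted p = 0.339). IFIT1 measured 7.12, 7.20 and 7.22 in the controls and 7.15, 7.79 and 7.43 with TGF-beta1, where the groups overlapped, and the difference of 0.28 ± 0.16 did not pass (adjusted p = 0.162). IFIT5 was detected on 2 of 3 control arrays and 0 of 3 TGF-beta1 arrays and did not pass either (adjusted p = 0.07). In the RefSeq gene table of GRCh38.p14, IFIT2 and IFIT3 are neighbours, IFIT1 and IFIT5 are neighbours, and 1 protein-coding gene lies between IFIT3 and IFIT1.

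IFIT3, which fell, and IFIT1, which did not pass, both hold the ISRE letters. IFIT3 holds 2 matches in 1 window, at -156 and -122 from the start, and 2 in another window, at -94 and -51. Only the match at -156 is printed, while both of the 2 matches of IFIT1 are. The stretches lie in chr10:89327829-89327862 and chr10:89392495-89392541, plus strand:
IFIT3: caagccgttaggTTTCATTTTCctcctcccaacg
IFIT1: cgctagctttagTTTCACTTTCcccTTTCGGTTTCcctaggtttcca

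**Figure D2:**
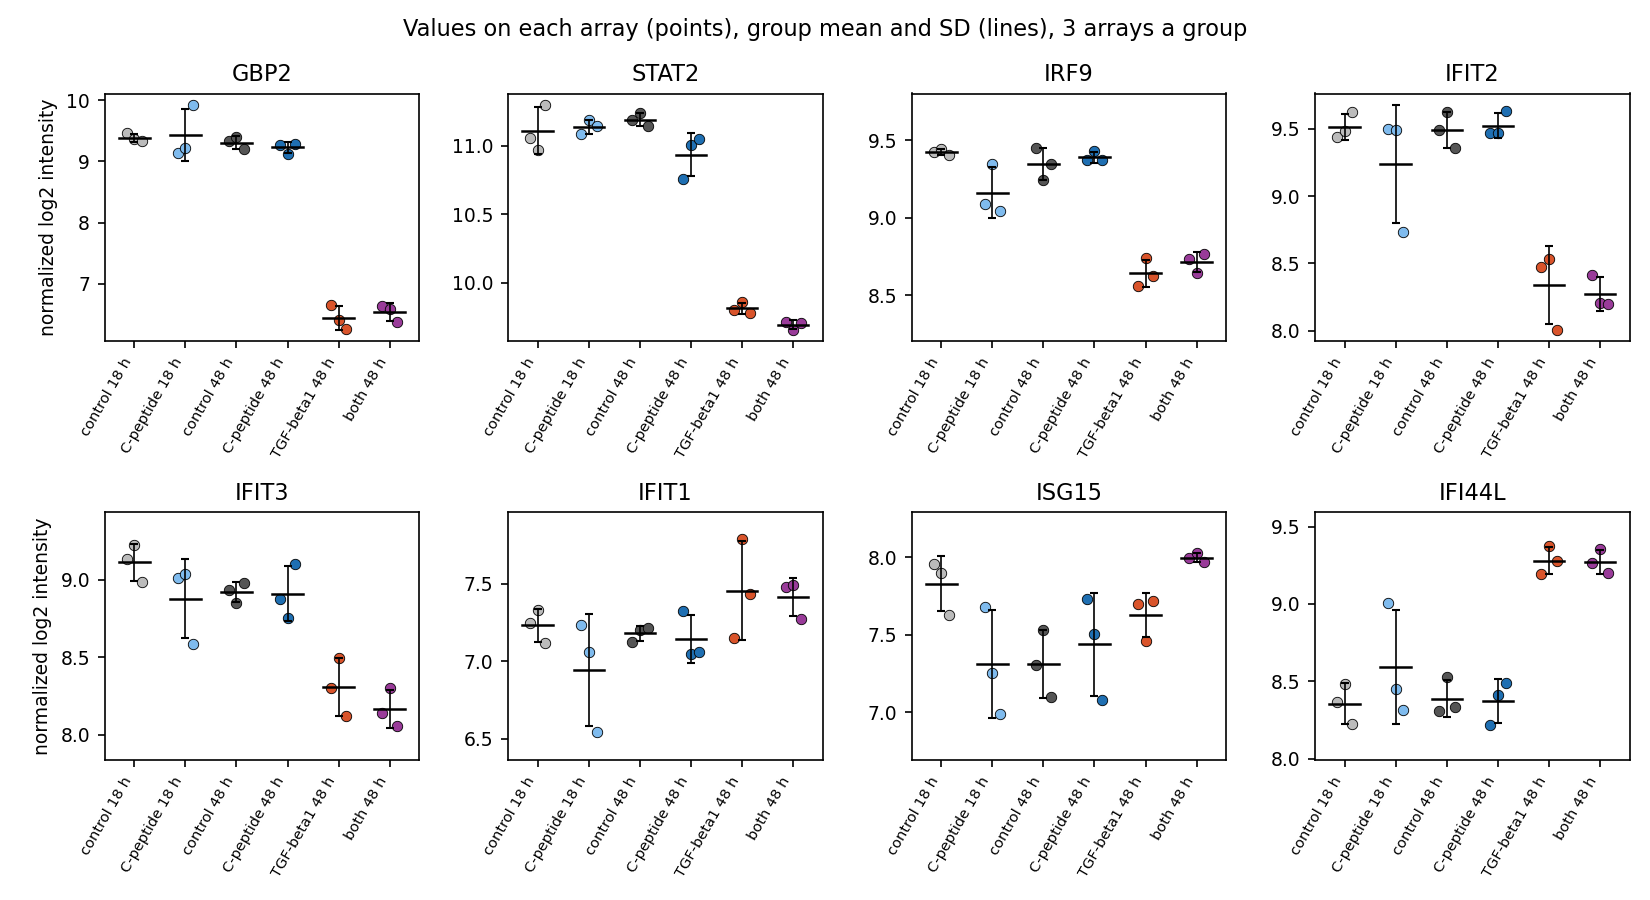
Normalized log2 intensity of 8 interferon-stimulated genes on each array (points), with the group mean and SD (lines) of 3 arrays per group. The y axes differ between panels and do not start at 0. GBP2, STAT2, IRF9, IFIT2 and IFIT3 are lower on all 6 arrays with TGF-beta1, IFI44L is higher on all 6, and the IFIT1 arrays with TGF-beta1 overlap the rest.

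Among the antiviral enzymes, OAS1 and OAS3 make the oligoadenylate signal that turns on RNase L, MX1 is a GTPase that traps viral particles, and ISG20 is an exonuclease. OAS1, detected on 1 of 3 TGF-beta1 arrays, fell (-0.35 ± 0.11, adjusted p = 0.015), and its neighbour OAS3 differed by 0.02 ± 0.09 (adjusted p = 0.9, 95% interval -0.17 to 0.20). A dimmer second probe of OAS1, detected on 3 of 3 control and 0 of 3 TGF-beta1 arrays, gave -0.73 (limma adjusted p over probes = 0.000343). MX1 measured 5.73, 5.94 and 5.74 in the 48 h controls, 5.38, 5.16 and 5.12 with TGF-beta1, 5.50, 5.70 and 5.67 with C-peptide and 5.21, 5.11 and 5.47 with both agents. It was detected on 0 of the 3 TGF-beta1 arrays, so that its fall was at least 1.25-fold (group means 5.80 ± 0.12 and 5.22 ± 0.14, SD, n = 3; adjusted p = 0.000571). ISG20 fell by 1.41-fold (adjusted p = 0.00761). Of the 4 measured genes in this group, 3 fell.

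ISG15, a ubiquitin-like protein that is attached to other proteins, and HERC5 did not pass, while HERC6, a relative of HERC5, fell. ISG15 measured 7.31, 7.53 and 7.10 in the 48 h controls, 7.70, 7.46 and 7.72 with TGF-beta1, 7.73, 7.51 and 7.08 with C-peptide and 8.00, 8.03 and 7.97 with both agents. The 3 arrays with both agents were the highest, and the TGF-beta1 arrays overlapped the controls (difference 0.32 ± 0.17, adjusted p = 0.129). HERC5, the main ISG15 ligase in human cells, differed by -0.19 ± 0.08 (adjusted p = 0.0798). HERC6, its neighbour on the chromosome, measured 8.27, 8.34 and 8.40 in the controls, 7.46, 7.50 and 7.36 with TGF-beta1, 8.45, 8.26 and 8.27 with C-peptide and 7.23, 7.23 and 7.39 with both agents. HERC6 fell by 1.86-fold with no overlap (-0.90 ± 0.10, adjusted p = 2.32e-07). The window of HERC6 holds neither set of letters. Those of ISG15 and HERC5 each hold an overlapping pair of ISRE matches, in chr1:1013372-1013411 and chr4:88456982-88457021, plus strand:
ISG15: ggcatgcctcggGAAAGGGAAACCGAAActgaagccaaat
HERC5: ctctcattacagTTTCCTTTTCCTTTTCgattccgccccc

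All 5 measured membrane proteins fell, by 1.26-fold to 1.5-fold. IFITM3, which blocks viral entry at endosomes, measured 9.40, 9.46 and 9.59 in the 48 h controls, 8.88, 8.92 and 8.91 with TGF-beta1, 9.53, 9.68 and 9.37 with C-peptide and 8.96, 8.92 and 9.58 with both agents. It fell with TGF-beta1 (log2 difference -0.58 ± 0.14, adjusted p = 0.00174), and the third array with both agents lay within the range of the controls. IFITM1 and IFITM2 differed by -0.43 and -0.37 (adjusted p = 0.025 and 0.0464). The 3 IFITM genes are neighbours with near-identical coding sequence, so their probes may share signal and their single values are uncertain. BST2, or tetherin, which holds budding virus at the cell surface, differed by -0.33 ± 0.10 (adjusted p = 0.0133), although 1 TGF-beta1 array overlapped the controls. IFI6, a small mitochondrial and endoplasmic reticulum protein, differed by -0.36 ± 0.10 (adjusted p = 0.00574), and its second probe by -0.37 (adjusted p = 0.0207).

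The guanylate binding proteins, GTPases that respond most to interferon gamma and attack vacuoles of bacteria and parasites, held the largest change of the set. GBP2 measured 9.33, 9.39 and 9.19 in the 48 h controls, 6.65, 6.42 and 6.26 with TGF-beta1, 9.27, 9.12 and 9.29 with C-peptide and 6.65, 6.60 and 6.38 with both agents. Every array with TGF-beta1 lay far below every array without it. GBP2 fell by 7.27-fold (-2.86 ± 0.15, adjusted p = 5.10e-12), from unnormalized intensities of 819.5, 771 and 664 to 93.9, 86.3 and 70.3. GBP1, its neighbour, measured 8.62, 8.51 and 8.53 in the controls, 7.39, 7.42 and 7.63 with TGF-beta1, 8.93, 8.47 and 8.70 with C-peptide and 7.70, 7.66 and 7.32 with both agents. It fell by 2.1-fold without overlap (-1.07 ± 0.15, adjusted p = 4.59e-06), and its second probe gave -0.96. The GBP1 window, chr1:89065159-89065458 on the minus strand, holds the ISRE letters once, at -127 from the start, and is shown as that of the next gene in size of fall with a window after STAT2 and IFI30:
GBP1: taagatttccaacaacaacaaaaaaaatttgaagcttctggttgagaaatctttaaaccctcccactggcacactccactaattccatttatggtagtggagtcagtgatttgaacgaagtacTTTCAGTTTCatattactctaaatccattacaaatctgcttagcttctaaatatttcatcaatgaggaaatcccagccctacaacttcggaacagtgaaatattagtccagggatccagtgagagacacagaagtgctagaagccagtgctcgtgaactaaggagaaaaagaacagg

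The remaining genes include the nuclear DNA sensor IFI16, the lysosomal thiol reductase IFI30, which prepares antigens for MHC class II, and the less understood IFI35, IFI44 and IFI44L. IFI16 measured 9.91, 9.83 and 9.88 in the 48 h controls, 8.91, 8.96 and 8.83 with TGF-beta1, 10.01, 9.90 and 10.04 with C-peptide and 8.89, 9.02 and 8.69 with both agents, and fell by 1.96-fold (-0.97 ± 0.08, adjusted p = 7.77e-09). IFI30 measured 8.30, 8.52 and 8.43 in the controls, 7.24, 7.37 and 7.01 with TGF-beta1, 8.56, 8.61 and 8.61 with C-peptide and 7.32, 7.52 and 7.29 with both agents, and fell by 2.32-fold (-1.21 ± 0.15, adjusted p = 1.71e-06). For both genes every array with TGF-beta1 lay below every other array. IFI35 measured 8.47, 8.35 and 8.48 in the controls, 7.94, 7.99 and 7.92 with TGF-beta1, 8.67, 8.50 and 8.55 with C-peptide and 8.07, 7.96 and 7.99 with both agents. Its arrays did not overlap, at a smaller difference of -0.48 ± 0.11 (adjusted p = 0.000948). The IFI30 window, chr19:18173563-18173862 on the plus strand, holds neither set of letters and is shown as that of the gene second in size of fall among those with a window:
IFI30: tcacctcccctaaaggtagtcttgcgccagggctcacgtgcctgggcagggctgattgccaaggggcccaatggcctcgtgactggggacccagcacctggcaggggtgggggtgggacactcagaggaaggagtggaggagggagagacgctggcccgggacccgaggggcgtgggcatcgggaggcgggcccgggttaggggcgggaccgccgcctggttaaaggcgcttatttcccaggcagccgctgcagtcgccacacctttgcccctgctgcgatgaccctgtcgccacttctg

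IFI44L was the single gene of the set that rose with TGF-beta1. It measured 8.31, 8.53 and 8.33 in the 48 h controls, 9.19, 9.37 and 9.28 with TGF-beta1, 8.22, 8.41 and 8.49 with C-peptide and 9.26, 9.35 and 9.20 with both agents. All 6 arrays with TGF-beta1 lay above the other 6, and the rise was 1.86-fold (0.89 ± 0.13, adjusted p = 1.61e-05). IFI44, the gene next to it and its relative in sequence, measured 8.26, 8.20 and 8.15 in the controls and 7.96, 8.02 and 7.95 with TGF-beta1, a difference of -0.22 ± 0.10 that did not pass (adjusted p = 0.0832). Both windows hold the ISRE letters. In IFI44L, chr1:78620198-78620497 on the plus strand, an 85-base stretch occurs in 2 identical copies that begin at -189 and -98 from the start, 91 bases apart, so that the letters appear once in each copy. For IFI44 the match lies in chr1:78649759-78649792, plus strand:
IFI44L: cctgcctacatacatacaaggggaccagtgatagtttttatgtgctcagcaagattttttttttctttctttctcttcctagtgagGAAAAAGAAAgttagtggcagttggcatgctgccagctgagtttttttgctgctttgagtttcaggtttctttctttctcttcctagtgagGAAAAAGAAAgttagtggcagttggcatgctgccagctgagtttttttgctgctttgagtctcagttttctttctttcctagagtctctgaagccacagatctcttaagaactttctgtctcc
IFI44: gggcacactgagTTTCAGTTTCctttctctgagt

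Genes around the set were counted from fixed lists of the same pathway. None of 10 interferon genes, among them IFNB1, IFNG and IFNL1, was detected on any array. Of 11 receptor, kinase and STAT genes 10 were measured, and with TGF-beta1 4 fell and 1 rose, with a median of -0.21. IFNAR1, a subunit of the type I interferon receptor, and IFNGR1, a subunit of the interferon gamma receptor, fell (log2 differences -0.44 ± 0.09 and -0.39 ± 0.13), and IFNGR2, the other subunit of the latter, rose by 0.81 ± 0.11. Of 11 inhibitors of the signal 10 were measured, of which 4 fell and 0 rose by limma, where 1 had an unadjusted p under 0.05 in the upward direction. SOCS1 and SOCS3, which block JAK kinases, fell, SOCS1 at least 1.08-fold (detected on 0 of 3 TGF-beta1 arrays, adjusted p = 0.000704) and SOCS3 with a log2 difference of -0.76 ± 0.16, as did the phosphatase PTPN1 (-0.69 ± 0.10). USP18, which removes ISG15 and dampens the receptor, was detected on 0 arrays.

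Of 12 genes that sense nucleic acids or switch on interferon genes, 11 were measured, of which 4 fell and 1 rose. IRF5, a factor downstream of Toll-like receptors, fell at least 1.63-fold (adjusted p = 1.43e-08), DHX58, a relative of RIGI, at least 1.73-fold and the double-stranded RNA receptor TLR3 at least 1.4-fold, each detected on 0 of 3 TGF-beta1 arrays. TRAF3, an adaptor of several sensors, rose by 0.33 ± 0.10 (adjusted p = 0.0116). A list of 46 further interferon-stimulated genes held 33 that were measured, of which 22 fell and 1 rose, with a median of -0.38. The largest falls were those of LY6E, a surface protein (-1.50 ± 0.14), the antiviral protein SAMD9 (-0.90 ± 0.10) and the ADP-ribosyltransferase family member PARP9 (-0.89 ± 0.10). LAP3, a peptidase, rose by 0.23 ± 0.09 (adjusted p = 0.0482). The lists were drawn up with earlier results of these arrays known, so their counts are descriptions beside the 23.2% and 21.9% of all genes.

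**Figure D3:**
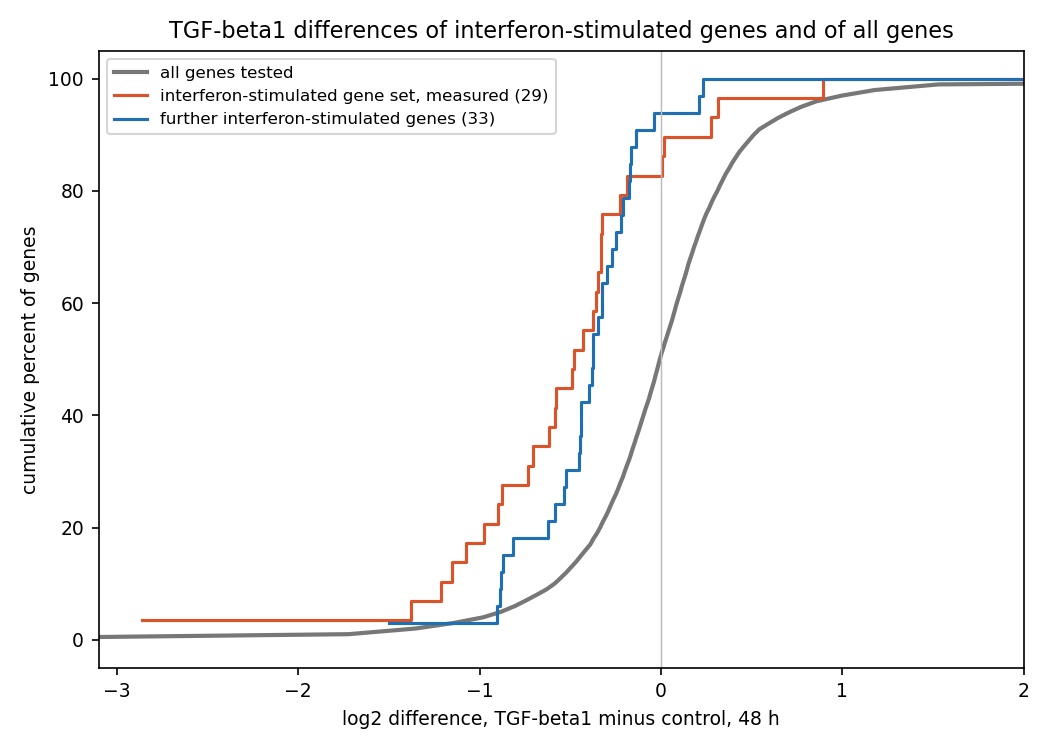
Cumulative percent of genes (y axis) at or below each log2 difference of TGF-beta1 minus control at 48 h (x axis), for all genes tested, the 29 measured genes of the set and the 33 further interferon-stimulated genes. The curve of all genes passes 50 percent close to 0, and those of both lists pass it at -0.48 and -0.38.

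The second TGF-beta1 comparison was made in cells that also had C-peptide, on other arrays. In both agents against C-peptide, 17 of the 29 genes fell and 2 rose, beside 21.7% and 21.3% of all genes, and the median over the 29 was -0.36. The 16 genes that fell in both comparisons are 76.2% of the 21 and 94.1% of the 17, and 18.2% of all genes fell in both. All 29 genes had the same sign in the 2 comparisons, as did 85.6% of all genes, and the log2 differences correlated with r = 0.98 (Spearman's rho 0.97) over the 29 genes and r = 0.96 over all genes. GBP2 again fell most (-2.68 ± 0.15), followed by IFIT2 (-1.25 ± 0.16), STAT2 (-1.24 ± 0.09), IFI30 (-1.22 ± 0.15), GBP1 (-1.14 ± 0.15), IFI16 (-1.12 ± 0.08) and HERC6 (-1.04 ± 0.10). These 7 genes fell at least 2-fold, and IFIH1 (-0.82), RIGI (-0.79), IFIT3 (-0.74), IRF9 (-0.68) and IFI35 (-0.57) fell by less. The falls of IFITM3 (-0.37), MX1 (-0.36), OAS1 (-0.36), IFI6 (-0.28) and HERC5 (-0.22) had adjusted p-values of 0.0343, 0.0211, 0.0143, 0.0271 and 0.0439. MX1 was detected on 1 of the 3 arrays with both agents. The second probe of IFI6 gave -0.14 (adjusted p = 0.389).

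The genes that rose were IFI44L (0.90 ± 0.13, adjusted p = 1.56e-05) and ISG15 (0.56 ± 0.17, adjusted p = 0.00982). The 3 ISG15 arrays with both agents lay above the 3 with C-peptide, where replicate 3 was the lowest. Without that array the ISG15 difference was 0.38 and did not pass (adjusted p = 0.0816). IFITM1, IFITM2, ISG20, IRF7 and BST2 passed in the first comparison and not in this one, where they differed by -0.26, -0.09, -0.32, -0.23 and -0.23. For IRF7 this held for the brightest probe only. Its second probe, which did not pass in the first comparison, gave -0.36 here (adjusted p = 0.037), and the mean of its kept probes gave -0.30 (adjusted p = 0.0155). The difference between the 2 comparisons was itself tested as an interaction, and it passed for 0 of the 29 genes and 0% of all 12463 by limma, with 0 of the 29 and 387 of all genes at an unadjusted p under 0.05. The interaction estimates ran from -0.14 for HERC6 to 0.29 for IFITM2 (95% interval -0.15 to 0.72), and for GBP2 the estimate was 0.18 (-0.26 to 0.62).

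**Figure D4:**
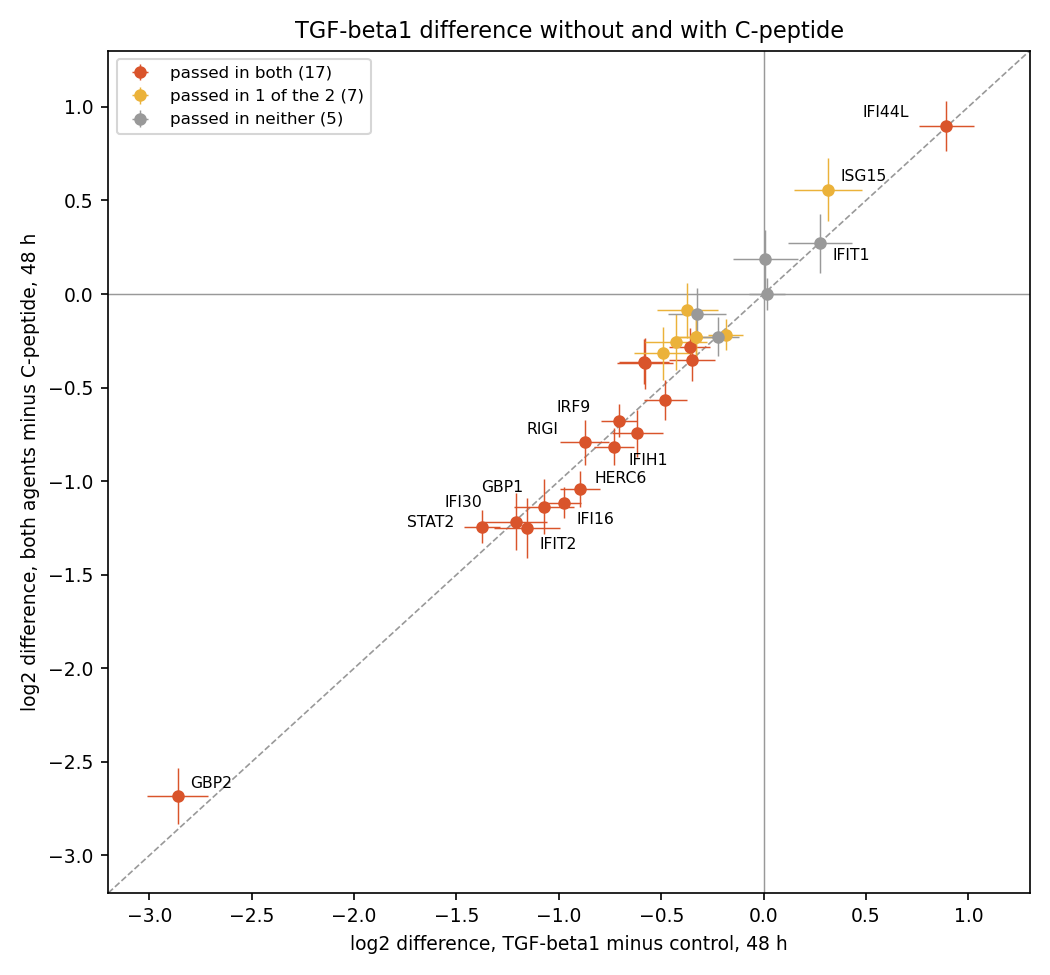
Log2 difference of each of the 29 measured genes for TGF-beta1 minus control (x axis) and both agents minus C-peptide (y axis) at 48 h, with SE bars, and the line of equal differences (dashed). The colours mark the 17 genes that passed in both comparisons, the 7 that passed in 1 and the 5 that passed in neither. All points lie close to the line, from GBP2 at the lower left to IFI44L at the upper right.

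In both agents against the 48 h control, which shares its arrays with the comparisons above and lies across 2 runs of array numbers, 17 of the 29 genes fell and 2 rose, beside 28.3% and 25.7% of all genes. The median over the 29 was -0.38. GBP2 differed by -2.76, STAT2 by -1.50, IFI44L by 0.88 and ISG15 by 0.69 ± 0.17 (adjusted p = 0.00164).

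No gene of the set passed the test with C-peptide alone. At 48 h, where run and treatment cannot be told apart, 0 of the 29 genes passed against control by limma, beside 5.32% of all genes, and 2 had an unadjusted p under 0.05. These were STAT2, at -0.25 ± 0.09 (adjusted p = 0.0897), and BST2, at 0.23 ± 0.10 (adjusted p = 0.201). STAT2 measured 10.76, 11.00 and 11.05 with C-peptide, below all 3 controls, and BST2 measured 10.42, 10.40 and 10.37, above the controls at 10.21, 10.26 and 10.03. The 95% intervals of all 29 differences lay between -0.44 and 0.49. Where C-peptide was added to TGF-beta1, 0 of the 29 genes passed by limma, beside 2.15% of all genes, and 4 had an unadjusted p under 0.05: ISG15 at 0.37 ± 0.17, IFITM1 at 0.33 ± 0.15, BST2 at 0.33 ± 0.10 and HERC5 at -0.19 ± 0.08. The lowest adjusted p was 0.102, for BST2. Among genes outside the set, named after their values were seen, PTPN1 (-0.42 ± 0.10) and the Tudor domain protein TDRD7 (-0.27 ± 0.08) fell with C-peptide at 48 h, and GBP3, another guanylate binding protein, rose (0.50 ± 0.14, adjusted p = 0.0377).

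At 18 h 0 of the 29 genes passed for C-peptide against control by limma, beside 2.29% of all genes, and 7 had an unadjusted p under 0.05. ISG15 measured 7.96, 7.90 and 7.63 in the 18 h controls and 7.68, 7.25 and 6.99 with C-peptide, groups that overlapped, for a difference of -0.52 ± 0.17 (adjusted p = 0.0732). IFIH1 measured 7.44, 7.64 and 7.75 and 7.81, 8.02 and 7.86, all 3 above the controls, for 0.29 ± 0.10 (adjusted p = 0.0901). IRF9 (-0.26), IRF1 (-0.44), ISG20 (-0.40), OAS1 (-0.26) and IFI35 (-0.23) had differences below 0, with adjusted p of 0.0846 to 0.186. Without the third array these were -0.21, -0.32, -0.25, -0.36 and -0.35, and that of IFIH1 was 0.31. The third C-peptide array was low for the IFIT genes and high for GBP2. IFIT2 measured 9.50, 9.49 and 8.73 and IFIT1 7.24, 7.06 and 6.54 on the 3 C-peptide arrays, against 9.44 to 9.62 and 7.12 to 7.33 in the controls. GBP2 measured 9.14, 9.22 and 9.92, against 9.34 to 9.46. Without the third array the difference of IFIT2 went from -0.28 to -0.02, that of IFIT1 from -0.29 to -0.09, that of ISG15 from -0.52 to -0.36 and that of GBP2 from 0.04 to -0.20, and again 0 genes passed. PSMB8, an immunoproteasome subunit on the list of further genes, fell (-0.36 ± 0.09, adjusted p = 0.0384). Without the third array its difference was -0.42 ± 0.09 (adjusted p = 0.0334).

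**Figure D5:**
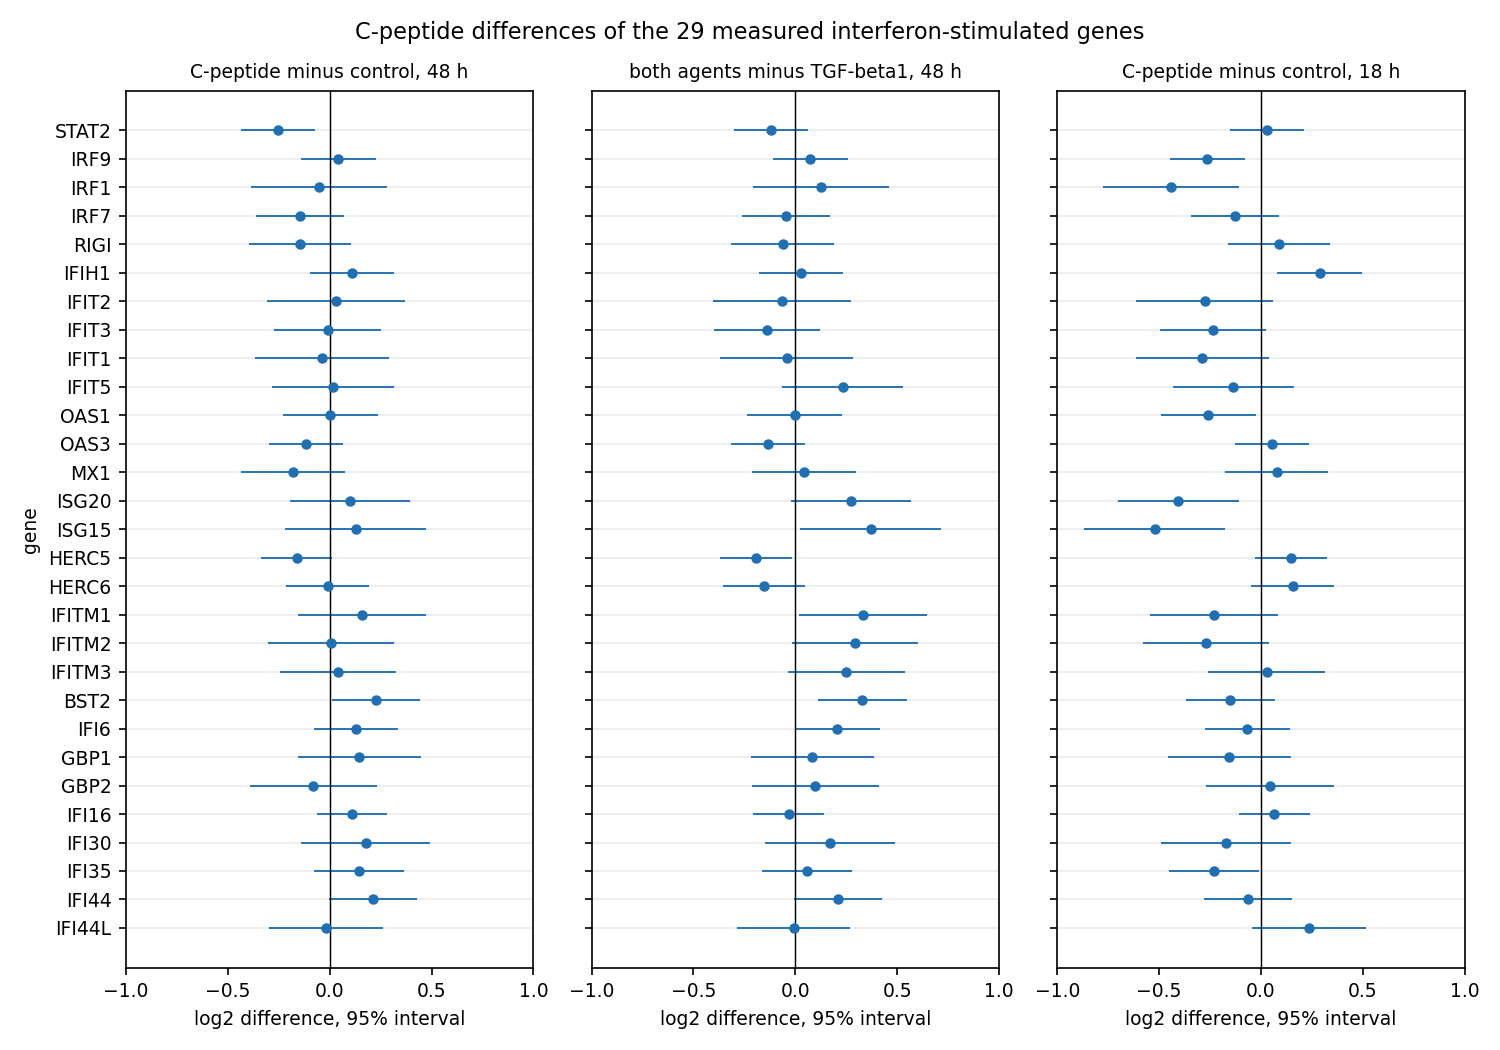
Log2 differences of the 29 measured genes (rows, ordered by role) with 95% intervals in the 3 C-peptide comparisons: without TGF-beta1 at 48 h, with TGF-beta1 at 48 h, and at 18 h. All estimates lie between -0.52 and 0.37, and no gene passed after adjustment over all genes.

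The C-peptide differences at 48 h and 18 h were also set against each other. Of the 29 genes 0 passed by limma, beside 8.92% of all genes, and 7 had an unadjusted p under 0.05. The largest estimate was that of ISG15 (0.65 ± 0.23, adjusted p = 0.0798), whose C-peptide arrays overlapped the controls at both times, and the lowest that of HERC5 (-0.31 ± 0.12). Without the third 18 h C-peptide array these were 0.49 and -0.23, and IFI35 then passed (from 0.37 to 0.49, adjusted p = 0.0278). The median over the 29 genes went from 0.22 to 0.08. Between the 48 h and 18 h controls 0 of the 29 genes passed by limma, beside 0.00802% of all genes, and 4 had an unadjusted p under 0.05. ISG15 (-0.52 ± 0.17), IFITM1 (-0.48 ± 0.15) and IRF1 (-0.47 ± 0.16) were lower at 48 h and IFIH1 (0.25 ± 0.10) was higher, with adjusted p of 0.097 for IFITM1, the lowest of the set.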

How the data were processed

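Mean bead intensity per probe was exported by the authors from GenomeStudio 1.1.1 without normalization, per the file headers, together with bead counts and a detection value, a fraction equal to 1 minus the detection p. The authors also deposited normalized intensities. The genome build of the probes is not given in the sources used here. Intensities were background-corrected, quantile-normalized and put on a log2 scale with neqc (offset 16, limma 3.58.1, R 4.3.3), and genes were represented by the brightest probe detected on 3 or more arrays. Of 48803 probes 22068 carried a current symbol, 6967 matched an older one in the RefSeq table of GRCh38.p14, and 19768 kept the listed name. Linear models of 6 group means over 18 arrays (12 residual degrees of freedom, eBayes with trend) gave two-sided p-values, adjusted over 12463 genes. The test was checked on simulated data. Genes with values on each array are those that passed with a log2 difference of at least 0.5 in either TGF-beta1 comparison. Such values are also given for IFIT1, IFI44 and BST2, which did not meet that rule. Members, lists and tests were chosen with earlier results of these data known. Alternatives covered scaling, offset, probe filters, probe averaging, the authors' table, fewer groups, array weights, a replicate block and each array left out. Some genes of the lists are not reported here. The precision is limited by 3 arrays per group. TGF-beta1 replicates 2 and 3 were grouped by title, although their descriptions name the factor with other numbers.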

Additional observations from a re-analysis of the deposited data

How the results depend on the processing

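No gene that passed in a TGF-beta1 comparison changed sign under any alternative run, while with C-peptide alone, where none of the 29 passed, 15 differences did so in at least 1 alternative at the later time, 10 at the earlier time and 9 in the test between times. Of the 21 genes that fell with TGF-beta1, 15 passed in every alternative that measured them, as did IFI44L. MX1 was measured in 14 alternatives and the rest of these genes in 15. The count was 17 to 21 when single arrays were left out. IFITM1, IFITM2, ISG20, OAS1, IRF7 and BST2 lost their call in at least 1, most often without TGF-beta1 replicate 2 or 3 or control replicate 2. In both agents against C-peptide 12 of 17 passed in every alternative, with 13 to 16 falling when an array was left out, and IFITM3, IFI6, MX1, OAS1 and HERC5 lost their call in some. In both agents against control 16 of 17 passed in every alternative that measured them, which for MX1 and OAS1 were 14. Leaving out arrays gave counts of 16 to 17 falling and 2 to 2 rising. With TGF-beta1, 2 genes rose when only the groups compared were fitted, 3 with array weights and 1 to 2 when arrays were left out (IFIT1 joined without TGF-beta1 replicate 1), and with both agents 1 to 2. HERC5, IFI44 and IFIT5 joined as lower with TGF-beta1 when only those groups were fitted (52% of all genes called) and with array weights (55.5%). IFIT5 also joined with median scaling (40.8%). In both agents against C-peptide, BST2, IFI44, IFITM1 and ISG20 joined as lower in the same 2 fits (47.2% and 56.9%). For C-peptide at 48 h array weights called 3 genes higher (BST2, IFI44, IFI6) and 1 lower (STAT2), beside 25.2% of all genes, and leaving out arrays 0 to 0. For C-peptide at 18 h, array weights called 1 higher (IFIH1) and 1 lower (IFI35), beside 9.03% of all, the replicate block 1 lower (ISG15, adjusted p 0.0413), beside 4.39%, and leaving out arrays 0 to 1 higher and 0 to 2 lower: IFIH1 and ISG15 without control replicate 3, IFITM1 and ISG15 without C-peptide replicate 1, IRF9 without C-peptide replicate 2. For both agents against TGF-beta1, 3 rose when only the groups compared were fitted (BST2, IFITM1, ISG15), beside 6.86% of all genes called, 1 with array weights (11.5%) and 0 to 1 on leaving out arrays (BST2 without TGF-beta1 replicate 1). For the C-peptide difference between times, 1 gene was higher with the replicate block (ISG15; 9.88% of all genes called), 6 with array weights (27%) and 0 to 2 on leaving out arrays, and 4 were lower with median scaling (21.8%), 1 with array weights and 0 to 2 on leaving out arrays; ISG15 joined without control 18 h replicate 3, C-peptide 48 h replicate 3 or C-peptide 18 h replicate 1, IFI35 without control or C-peptide 18 h replicate 3, IRF9 without C-peptide 18 h replicate 2, IFITM1 without its replicate 1, and HERC5 and STAT2 without control 18 h replicate 3. Between the controls median scaling called 6 genes higher (35.8% of all genes called), array weights 1 higher and 5 lower (23.4%), and 0 to 2 were lower on leaving out arrays (IFITM1 and ISG15 without control 18 h replicate 3). The cause of these changes was not tested. Median scaling moved the median of all genes to -0.20 for both agents against control, -0.14 for C-peptide at 48 h and for both agents against TGF-beta1, 0.12 for C-peptide at 18 h, -0.24 for its difference between times and 0.26 between the controls, where the 29 genes had medians of -0.58, -0.10, -0.11, -0.01, -0.03 and 0.20, against -0.38, 0.02, 0.06, -0.14, 0.22 and -0.08 as reported. Replicate numbers did not pair the arrays: the deviations of arrays of the same number correlated by -0.24 to 0.27, with no comparison above 0.1 in every pair, and the block took 1 call each from both agents against C-peptide (HERC5) and against control (IFITM3). A block for the array run has no value of its own, because each run holds whole groups. With only the 250 bases before the start, the share of all genes with ISRE letters was 3.71% and with GAS letters 8.09%, while the 63.0% and 29.6% of the set stayed.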

Other observations

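Some genes of the NF-kappaB and inflammatory list also fell with TGF-beta1. Of 26 genes 18 were measured, of which 7 (38.9%) fell and 0 rose by limma, beside 23.2% and 21.9% of all genes. In the upward direction 2 had an unadjusted p under 0.05. LCN2, an iron-binding protein of injured tubules, fell at least 10.5-fold (detected on 0 of 3 TGF-beta1 arrays). Smaller falls were those of the ubiquitin-like protein UBD (log2 difference -1.95 ± 0.36, SE, detected on 1 of 3) and the cytokine LTB (-1.78 ± 0.25). UBD and LTB also fell with C-peptide at 18 h (-1.53 ± 0.36 and -1.38 ± 0.25, adjusted p = 0.0384 and 0.0283). Without the third C-peptide array these were -0.87 ± 0.23 for UBD, which did not pass (adjusted p = 0.0658), and -0.89 ± 0.13 for LTB (adjusted p = 0.00863).

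Markers of other cell types were measured in part. The counts that follow stand beside the 23.2% of all genes that fell and the 21.9% that rose with TGF-beta1. Of 7 fibroblast markers 4 were measured, of which PDGFRB and DCN rose with TGF-beta1, PDGFRB at least 1.5-fold (detected on 0 of 3 control arrays) and DCN by 0.76 ± 0.23 (log2; detected on 1 of 3), while COL3A1, THY1 and FAP were detected on 0 arrays. Of 6 endothelial markers 1, PECAM1, was measured and rose at least 1.17-fold (detected on 0 of 3 control arrays), with VWF, CDH5 and KDR detected on 0 arrays. Of the 9 measured markers of epithelium and proximal tubule 4 fell and 1 rose: CDH1, the epithelial cadherin (-3.06 ± 0.18), and the kidney factor PAX8 (-1.37 ± 0.13) were among those that fell, and the keratin KRT8 rose by 0.38 ± 0.10.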
